A study of Mus musculus with 672 samples.

Results

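Genes known to respond to low oxygen were followed cell by cell on the way of female mouse embryonic fibroblasts (MEFs) to induced pluripotent stem cells (iPSCs). The group held 9 genes picked by name: Egln1, Egln3, Vegfa, Adm, Bnip3, Ndrg1, P4ha1, P4ha2 and Ankrd37. All 9 were found by symbol among the 26127 genes of the table. The rule names genes and has no threshold on a measured value, but the genes were chosen with earlier results of these data known. Egln3, Bnip3, Ndrg1 and Ankrd37 were higher in the sorted intermediates of the Xi-Mus cells, whose Mus X was inactive at the start, than in both the fibroblasts and the iPSCs. Adm and P4ha2 were highest in the fibroblasts. All 9 had a lower mean in iPSCs than in day 12 intermediates of the same starting cells, where 53.5% of all genes did. All 9 also had a lower mean in day 12 intermediates that began with the Cast X inactive than in those that began with the Mus X inactive, where 48.3% of all genes did. In this last comparison the direction of Egln1 differed between 2 parts of the plates.

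Single cells were measured by Smart-seq2, which amplifies the polyadenylated RNA of 1 cell in each well. The MEFs were hybrids with one X chromosome from Mus musculus (Mus), which bore a GFP transgene, and the other from Mus musculus castaneus (Cast). They had been transduced with lentiviruses for doxycycline-inducible Oct4, Sox2, Klf4 and Myc and for the transactivator rtTA, and this held for all 7 groups. Xi-Mus cells were sorted without GFP and had an inactive Mus X at the start, and Xi-Cast cells were sorted with GFP and had an inactive Cast X.

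The groups were Xi-Mus MEFs at day 0 in MEF medium (86 cells in the table), SSEA1-sorted Xi-Mus intermediates at day 8 (82 cells), day 9 (83 cells), day 10 (80 cells) and day 12 (80 cells) in embryonic stem cell medium with doxycycline and ascorbic acid, Xi-Mus iPSCs (90 cells) from picked colonies passaged without either compound, and SSEA1-sorted Xi-Cast intermediates at day 12 (66 cells). The labels name the surface marker FUT4, where the paper's methods name an antibody to SSEA1. The sort keeps cells that had gained this marker, so values describe sorted cells and not whole cultures. Medium, doxycycline and ascorbic acid changed together with the stage and cannot be told apart from it. No group was labelled as hypoxic, and the oxygen level of the cultures is not given in the sources used here.

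Each group was 1 plate of cells, with no separate cultures or animals named in the labels. A group was therefore 1 sample, no test was run, and no comparison has a replicate check. Levels are given as reads per 100000 reads that a cell had over all genes, averaged over the cells of a plate, with the SD over cells. A comparison is the log2 ratio of the averages of both groups, each with 1 added, which understates differences of low genes. A mean cannot tell fewer cells with a gene from less RNA per cell, so shares of cells are given beside it. Depth ran from 15053 to 2098345 reads per cell, with group medians between 505799 and 726843. Days 0, 8, 9 and 10 were sequenced in 1 pool, while the iPSCs and both groups of day 12 made up the other pool, so the pool cannot be told apart from the stage between day 10 and day 12 or between day 0 and iPSCs. The labelled cell types were present by their markers. The 10 fibroblast markers summed to a median of 1.99 in iPSCs and 2644 at day 0, and the 12 pluripotency markers to 712 in iPSCs and 0 at day 0, where 6 of them, among them Zfp42 and Dppa5a, had no read. In 5 cells after day 0 the summed fibroblast or the summed blood and macrophage markers exceeded 500, with 1 such cell in each of the day 8, day 10, day 12 Xi-Cast, day 12 Xi-Mus and iPSC plates. Several results of single genes that rest on them are also given without them, while the counts and sums of markers include them.

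Cells sense oxygen through enzymes that hydroxylate the alpha subunits of hypoxia-inducible factor (HIF). With oxygen, prolyl hydroxylases of the Egln family mark HIF-alpha for destruction through the Vhl ubiquitin ligase. Without it, HIF-alpha pairs with Arnt, binds a short DNA core in gene promoters and enhancers, and raises genes for glycolysis, vessel growth, mitophagy and matrix. Egln1 and Egln3 are such sensors and are themselves HIF targets. Vegfa encodes a vessel growth factor and Adm the vasodilator peptide adrenomedullin. Bnip3 encodes a receptor on the outer mitochondrial membrane that directs mitochondria to autophagy. Ndrg1 encodes a cytosolic protein of stress and differentiation. P4ha1 and P4ha2 encode catalytic alpha subunits of collagen prolyl 4-hydroxylase, an enzyme that, like the Egln sensors, needs oxygen, iron, 2-oxoglutarate and ascorbate. Ankrd37 encodes a small ankyrin repeat protein described as a HIF target in human cells.

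The members lie on 7 chromosomes of the mouse build GRCm38 (GENCODE vM21). Egln1 is at chr8:124908587-124949324, Egln3 at chr12:54178981-54203860, Vegfa at chr17:46016993-46032369, Bnip3 at chr7:138890836-138909519, Ndrg1 at chr15:66929318-66969640 and Ankrd37 at chr8:45996902-46005707, all on the minus strand. Adm is at chr7:110627661-110629820, P4ha1 at chr10:59323296-59373304 and P4ha2 at chr11:54100095-54131665, all on the plus strand. The reads do not mark strand, so a gene and an antisense partner cannot be told apart where their exons overlap. Ankrd37 shares 349 exon bases with Lrp2bp, Bnip3 shares 504 with Gm45507 and Ndrg1 shares 419 with Gm17035, each on the opposite strand. Transcripts of Bnip3 also match other genes closely, such as the long noncoding RNA gene AC160336.1 over 858 bases at 98.3% identity and the pseudogene Gm14506 over 544 bases at 93.4%. A stretch of P4ha2 matches transcripts of other genes, such as Enah over 214 bases at 91.6%. The authors counted uniquely aligned reads, so reads that fit Bnip3 and a copy equally well were not counted and the level of Bnip3 is uncertain.

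HIF binds the core ACGTG or GCGTG. In the 250 bases before the RefSeq start sites, at least 1 of these cores, searched on both strands with overlaps counted, was found in 7 of the 8 members that could be matched (Ndrg1 was not matched). Over all 32841 RefSeq promoter windows of that length, from 27018 genes, the share was 38.6%. ACGTG stood in 6 members against 16.6% of all windows, and GCGTG in 6 members against 28.2%. A match describes letters and is no evidence of binding. The windows below are shown for Bnip3 and P4ha1, whose reads went together between cells, for Ankrd37, which had one of the sharpest stage patterns, and for Vegfa, the member without a match. They are from RefSeq (GRCm38.p6), read in the direction of the gene, with each core in capitals on whichever strand it lies.
Bnip3 (chr7:138909507-138909756, minus strand): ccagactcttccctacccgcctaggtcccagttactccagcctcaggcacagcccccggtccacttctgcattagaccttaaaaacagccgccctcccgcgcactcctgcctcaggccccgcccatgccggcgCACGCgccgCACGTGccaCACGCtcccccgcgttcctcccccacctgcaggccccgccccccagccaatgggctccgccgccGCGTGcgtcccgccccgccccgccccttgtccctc
P4ha1 (chr10:59323046-59323295, plus strand): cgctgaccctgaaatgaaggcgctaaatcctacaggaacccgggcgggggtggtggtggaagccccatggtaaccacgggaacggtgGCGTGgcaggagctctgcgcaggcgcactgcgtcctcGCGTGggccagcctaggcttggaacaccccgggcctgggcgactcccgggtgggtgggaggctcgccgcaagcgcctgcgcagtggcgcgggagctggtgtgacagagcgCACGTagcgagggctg
Ankrd37 (chr8:45999851-46000100, minus strand): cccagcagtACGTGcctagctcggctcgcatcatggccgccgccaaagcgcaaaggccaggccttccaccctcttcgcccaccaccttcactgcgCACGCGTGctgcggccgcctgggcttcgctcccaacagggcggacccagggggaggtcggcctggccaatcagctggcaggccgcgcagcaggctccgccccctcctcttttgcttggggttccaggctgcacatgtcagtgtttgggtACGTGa
Vegfa (chr17:46032378-46032627, minus strand): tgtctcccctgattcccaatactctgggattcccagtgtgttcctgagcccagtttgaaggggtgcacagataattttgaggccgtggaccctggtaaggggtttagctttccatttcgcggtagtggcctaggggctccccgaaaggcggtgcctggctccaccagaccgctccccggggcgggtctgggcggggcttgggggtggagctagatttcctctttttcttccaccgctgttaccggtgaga
The 5 matches in Bnip3 began 117, 108, 107, 99 and 35 bases before the start site, and those at 108 and 107 are the same CACGTG read on each strand. The 3 in P4ha1 began 163, 126 and 16 bases before it, and the 4 in Ankrd37 began 241, 155, 152 and 6 bases before it. The Ankrd37 window belongs to a start site 5857 bases inside the GENCODE gene, which has a longer transcript.

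Of the oxygen sensors, Egln3 was low at both ends of the series and high in between. Its mean was 0.327 ± 1.33 at day 0, 8.14 ± 15.4 at day 8 and 13.7 ± 24.04 at day 9, followed by 16.4 ± 25.01 at day 10, 22.1 ± 29.9 at day 12 and 2.98 ± 5.07 in iPSCs (SD over cells). Per cell it ran from 0 to 7.85 with a median of 0 at day 0, from 0 to 143 with a median of 10.8 at day 12 and from 0 to 29.3 with a median of 0 in iPSCs. The ranges of all groups overlapped at 0, and the plates differed in how many cells had reads and how high these went. After each cell was thinned to 100000 reads, Egln3 was found in 5.95% of cells at day 0 (95% exact binomial interval 1.96 to 13.3%), 42% at day 8, 76.3% at day 12 (65.4 to 85.1%) and 40.9% of iPSCs (30.5 to 51.9%). Without thinning the shares were 9.30%, 50%, 76.3% and 47.8%. These intervals, and all other intervals of shares here, cover counting error over the cells of 1 plate only, because no group had replicate cultures. PCR copies were not marked with molecular identifiers, so counts of reads are not counts of molecules.

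Egln1 was sparse in every group. Its means lay between 0.449 in iPSCs and 2.33 at day 12, and its median over cells was 0 in all 7 groups. The highest cell reached 30.9 at day 12. In the day 12 Xi-Mus plate the mean was 3.97 in cells of the first 4 of the plate's 8 first-position library indexes and 0.837 in those of the last 4. Differences of Egln1 that involve this plate were of the size of this gap. Among levels next to each other in the order of its 7 levels, the means of these index sets overlapped between day 12 Xi-Mus and day 9. The same held for day 12 Xi-Cast and day 10, day 10 and day 0, and day 0 and day 8. Index sets are parts of the cells of 1 plate and not replicates. Here and below, their overlap or its absence describes spread within plates only.

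Of the secreted factors, Adm was highest in the fibroblasts. Its mean was 24.4 ± 48.9 at day 0 and between 0.756 and 3.06 at days 8 to 12, and 0.0656 ± 0.440 in iPSCs. In iPSCs 2 of 90 cells had reads, and the highest value was 3.26. At day 0 Adm ran from 0 to 326 with a median of 5.90, and 60 of 86 cells had reads. The day 0 values spread widely, and the 26 cells without reads overlapped with most cells of every later plate. The summed reads were 55 in iPSCs and 14422 at day 0. Divided by the summed depth of the plate, and not averaged over cells, exact Poisson intervals per 100000 were 0.0711 to 0.123 and 28.05 to 28.98. They belong to this pooled level and not to the means above. They treat reads as independent counts and leave out the spread between cells. Vegfa was low throughout, with means of 0.476 at day 0, 0.286 at day 8 and 0.690 at day 9, followed by 0.610 at day 10, 1.19 at day 12 and 0.162 in iPSCs. Its highest cell had 13.8, at day 12. Among the 7 levels of Vegfa, only day 12 Xi-Mus stood above the next level in both index sets.

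Bnip3, the mitophagy receptor gene, had its highest level at day 12. The mean was 0.981 ± 1.78 at day 0, 4.23 ± 4.64 at day 8 and 4.06 ± 4.92 at day 9, followed by 5.93 ± 9.21 at day 10, 9.92 ± 9.93 at day 12 and 1.36 ± 1.57 in iPSCs. Its median over cells was 5.99 at day 12, with a range from 0 to 42.8, against 0.577 at day 0 with a range from 0 to 11.8. The day 12 cell with 42.8 was the one with a blood and macrophage marker sum of 2064, and without it the mean was 9.50. After thinning, 92.5% of day 12 cells had reads (84.4 to 97.2%), 53.4% of iPSCs (42.5 to 64.1%) and 38.1% of day 0 cells (27.7 to 49.3%). The table also held 3 of the near-identical copies. With AC160336.1, Gm14506 and Gm9419 added, a sum chosen after seeing the data, the mean was 1.12 at day 0, 4.89 at day 8 and 4.39 at day 9, followed by 6.67 at day 10, 11.1 at day 12 and 1.52 in iPSCs, in the same order of stages.

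Ndrg1 had the widest swing between intermediates and iPSCs. Its mean was 3.92 ± 5.93 at day 0, 27.3 ± 38.3 at day 8 and 16.9 ± 26.1 at day 9, followed by 34.1 ± 56.7 at day 10, 24.1 ± 31.9 at day 12 and 0.624 ± 1.66 in iPSCs. In iPSCs it ran from 0 to 8.90 with a median of 0, and at day 10 from 0 to 295 with a median of 11.8. No iPSC exceeded 8.90, while the intermediates held cells without Ndrg1 reads next to cells with values of up to 295. Ankrd37 was near 0 at day 0 (mean 0.264 ± 1.03), reached 1.97 ± 3.43 at day 8 and 7.29 ± 10.9 at day 9, and was 7.22 ± 10.8 at day 10, 5.66 ± 12.0 at day 12 and 0.733 ± 1.30 in iPSCs. Its median was 0 at day 0 and day 8, 3.16 at day 9, 4.29 at day 10, 3.19 at day 12 and 0 in iPSCs. At day 12, 1 cell with 100 held 22.2% of the summed values of Ankrd37, and without it the mean was 4.46. The day 9, day 10 and day 12 levels of Ankrd37 overlapped between index sets.

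**Figure D1:**
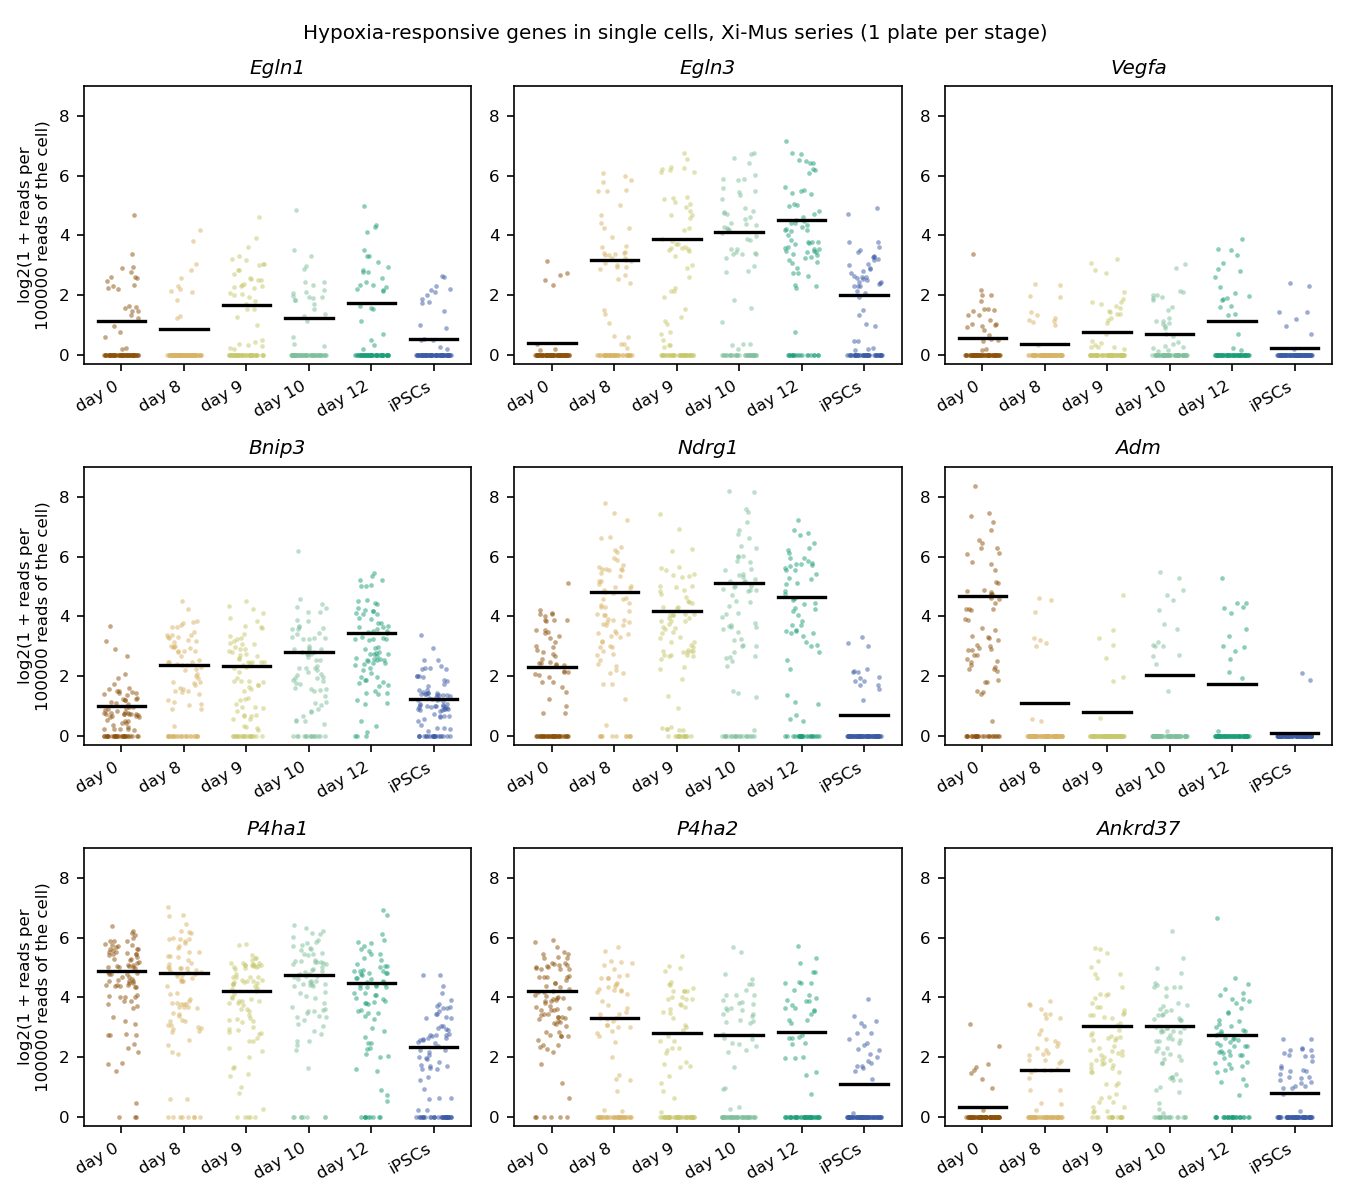
Reads per 100000 reads of the cell, as log2 of 1 + the value, of each of the 9 genes in every cell of the Xi-Mus series from day 0 to iPSCs, 1 point per cell; black lines are log2 of 1 + the mean over cells. Egln3, Bnip3, Ndrg1 and Ankrd37 have their lowest lines at day 0 or in iPSCs, Adm is highest at day 0, where its mean was 24.4, and P4ha1 has similar lines from day 0 to day 12.

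The collagen prolyl hydroxylase subunits differed from each other. P4ha1 had a mean of 28.5 ± 19.3 at day 0, 27.05 ± 26.8 at day 8 and 17.7 ± 13.2 at day 9, followed by 26.1 ± 20.8 at day 10, 21.2 ± 21.9 at day 12 and 4.05 ± 5.50 in iPSCs. Reads for it were found in between 88.8% and 96.5% of cells from day 0 to day 12 and in 62.2% of iPSCs. P4ha2 had a mean of 17.4 ± 13.99 at day 0, 8.99 ± 12.0 at day 8 and 6.03 ± 8.96 at day 9, followed by 5.75 ± 9.50 at day 10, 6.15 ± 10.2 at day 12 and 1.13 ± 2.55 in iPSCs. Its median was 13.8 at day 0, 2.32 at day 8, 0.550 at day 9 and 0 at day 10, at day 12 and in iPSCs. The day 0 and day 8 levels of P4ha1 overlapped between index sets, and those of P4ha2 did not, which is no replicate check.

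Most partners of these subunits in collagen folding were lower at day 8 than at day 0, while P4ha1 had a similar level at both. Among 11 genes of collagen prolyl and lysyl hydroxylation that reached a mean of 1 in either group, 9 were lower by 2-fold or more at day 8 than at day 0 and 1 was higher by as much, with a median log2 ratio of -1.97 against 0.24 over all genes. Serpinh1, the collagen chaperone, had 1.17 at day 8 and 123 at day 0, P3h1, a collagen prolyl 3-hydroxylase, 0.443 and 20.4, and P4ha3, the third alpha subunit, 0.199 and 12.6. P4hb, the beta subunit that all alpha subunits bind (named for its role after its values were seen), had 67.8 and 269. The exception in the other direction was Plod2, a lysyl hydroxylase and HIF target (likewise named after its values were seen), with 20.2 and 8.94. Each of 10 collagen chain genes was 2-fold or more below its day 0 level at day 8 (median -4.58), such as Col1a1 with 16.4 against 633. A single cell held 97.0% of the Col1a1 values of day 8, and without it the mean was 0.502.

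**Figure D2:**
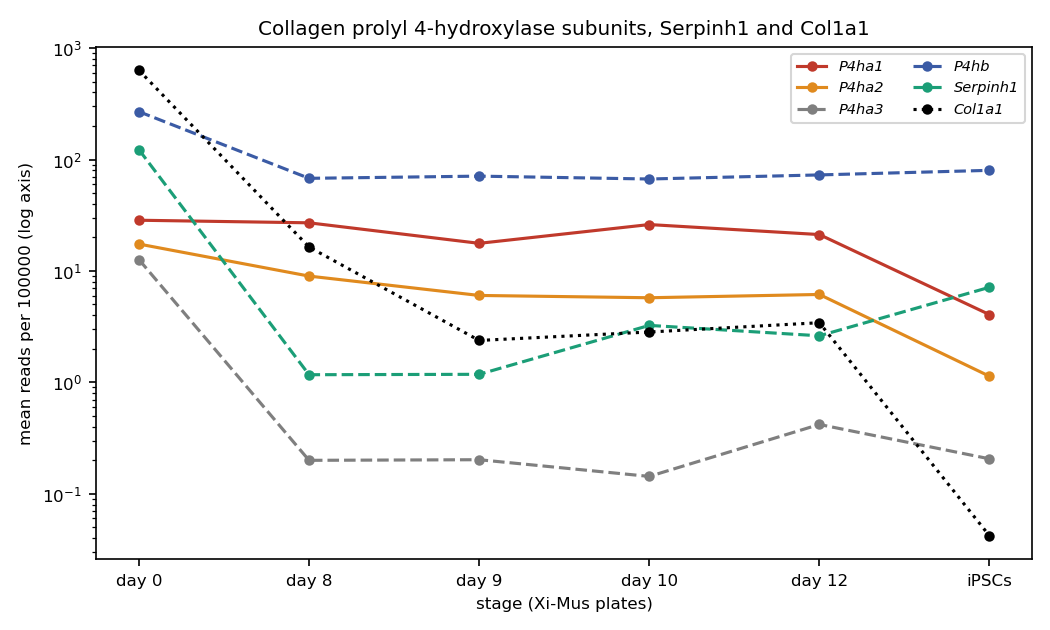
Mean reads per 100000 (log axis) of the collagen prolyl 4-hydroxylase subunit genes P4ha1, P4ha2, P4ha3 and P4hb, of the collagen chaperone gene Serpinh1 and of Col1a1 in the 6 Xi-Mus plates from day 0 to iPSCs; each point is 1 plate. P4ha1 stays between 17.7 and 28.5 from day 0 to day 12 and is 4.05 in iPSCs, while Serpinh1 and Col1a1 are 1.17 and 16.4 at day 8.

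Levels of different genes were compared per kilobase of exon. At day 0, Adm was the highest member with 15.1 reads per 100000 per kilobase, before P4ha1 with 6.93 and P4ha2 with 2.79, and the other 6 were at or under 0.594. At day 12 in Xi-Mus cells Egln3 came first with 8.29, followed by P4ha1 with 5.16, Bnip3 with 4.38, Ankrd37 with 3.68 and Ndrg1 with 3.65. In iPSCs Egln3 with 1.12 and P4ha1 with 0.985 were the highest, and Vegfa with 0.0378 was the lowest. In Xi-Mus cells the summed level of the 9 genes was similar from day 0 to day 12, with 77.5 ± 51.9 at day 0, 79.9 ± 66.8 at day 8 and 69.4 ± 60.3 at day 9, followed by 101 ± 94.1 at day 10, 94.9 ± 80.4 at day 12 and 11.6 ± 9.96 in iPSCs. In day 12 Xi-Cast cells it was 34.7 ± 62.4.

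Day 8 intermediates were compared with day 0 MEFs to see which members differed at the first sampled stage of the intermediates. Egln3 (log2 ratio 2.78), Ndrg1 (2.52), Bnip3 (1.40) and Ankrd37 (1.23) were at least 2-fold higher at day 8, and Adm (-3.56) was at least 2-fold lower. P4ha2 was at -0.88, Egln1 at -0.27, Vegfa at -0.20 and P4ha1 at -0.07. Among the 10201 genes that reached a mean of 1 in either group, 21.1% were at least 2-fold higher and 15.4% lower, so that a 2-fold difference was common here. The median of the 9 members was -0.07 and that of all genes 0.24. Scaling the plates by median ratios over 6314 genes removes up to 0.33 (log2) from the ratios of this comparison and up to 0.28 from those of iPSCs against day 0. Scaled so, 4 members were at least 2-fold higher at day 8, with Bnip3 at 1.21 and Ankrd37 at 1.13, and 2 were lower, with P4ha2 at -1.19 beside Adm, against 15.7% of all genes higher and 19.8% lower. By mean log values 1 member, Ndrg1 (1.05), was at least 2-fold higher and none lower, against 2.16% and 2.88% of all genes. Cell type markers differed along with the members. All 10 epithelial markers and 4 of 4 keratinocyte markers that reached a mean of 1 were at least 2-fold higher at day 8 (median log2 ratios 5.10 and 4.46), and all 10 fibroblast markers were lower (-4.88). The epithelial markers summed to between 151 and 3432 per cell at day 8 and between 0 and 65.9 at day 0, the keratinocyte markers to between 0 and 3084 and between 0 and 0.308, and the fibroblast markers to between 0 and 3937 and between 881 and 6491. Their part in the difference was not tested.

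Other HIF targets were mixed at day 8. Of 31 genes of a list of other HIF targets that reached this mean, 11 were at least 2-fold higher at day 8 and 7 lower than at day 0 (median 0.46). Mxi1, a Myc antagonist, had a mean of 6.17 at day 8 and 0.285 at day 0, and Pdk1, a kinase that turns down pyruvate dehydrogenase, 7.73 and 0.749. The membrane protein gene Tmem45a had 0.431 at day 8 and 15.1 at day 0. Of 18 glycolytic targets 8 were higher and none lower (median 0.86). The glucose transporter gene Slc2a3 had 63.4 at day 8 and 0.364 at day 0, the aldolase gene Aldoc 31.9 and 1.07, and the lactate exporter gene Slc16a3 21 and 1.76. Among 16 genes of the oxygen-sensing pathway itself 3 were higher and 3 lower (median -0.10). Hif1a, which encodes the alpha subunit of HIF-1, had 10.6 at day 8 and 35.6 at day 0, and Vhl 5.36 and 1.92. Epas1, which encodes the alpha subunit of HIF-2 (named after its values were seen), had 4.78 and 0.627. Car9, a carbonic anhydrase gene much used as a marker of hypoxia (also named after its values were seen), stayed between 0 and 0.277 in all 7 groups.

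Successive intermediates differed less. From day 8 to day 9, Ankrd37 was the only member at least 2-fold higher (log2 ratio 1.48, day 9 over day 8), where 1.07% of all genes were, and no member was 2-fold lower (0.827% of all genes). Egln1 (0.80) and Egln3 (0.69) were higher and Ndrg1 (-0.66) and P4ha1 (-0.59) lower by under 2-fold. Between day 10 and day 9 only Adm passed 2-fold (1.21, against 1.82% of all genes higher and 0.423% lower), and its mean of 3.06 at day 10 rested on 17 of 80 cells, against 0.756 at day 9 on 8 of 83 cells. Ndrg1 was at 0.97. Between day 12 and day 10, with 3.36% of all genes higher and 3% lower, no member passed 2-fold in either direction, and the log2 ratios lay between -0.48 for Ndrg1 and 0.65 for Bnip3. Of the glycolytic targets, the neuronal-type enolase gene Eno2 had a mean of 4.10 at day 9, 13.4 at day 10 and 6.54 at day 12.

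iPSCs were compared with day 12 intermediates, which shared a sequencing pool. All 9 members were lower in iPSCs, 8 of them at least 2-fold, against 14.7% of all genes 2-fold lower and 3.83% higher. Of all genes 53.5% lay below 0. The median log2 ratio was -1.94 for the members and -0.06 for all genes. Ndrg1 had the largest difference (0.624 in iPSCs and 24.1 at day 12, log2 ratio -3.95), followed by Egln3 (2.98 and 22.1, -2.54), Bnip3 (1.36 and 9.92, -2.21), P4ha1 (4.05 and 21.2, -2.14) and Ankrd37 (0.733 and 5.66, -1.94). P4ha2 was at -1.74, Adm at -1.63 and Egln1 at -1.20, and Vegfa at -0.91 was the member under 2-fold. By cells, 14 of 90 iPSCs (15.6%, exact binomial interval 8.77 to 24.7%) and 51 of 80 day 12 cells (63.8%, 52.2 to 74.2%) had reads for 5 or more of the 9 members. On the scale of mean log values only Ndrg1 was 2-fold lower (-1.17), where 0.845% of all genes were. The median of the 9 was -0.40. The deposited logs add 1 to reads per 10000, while the main ratios add 1 to means per 100000. Differences of low genes are therefore shrunk more on the log scale. In every comparison, 2-fold by mean log values is thus not the same measure as 2-fold by the main ratios.

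The other HIF targets were lower in iPSCs as well, with 11 of 28 at least 2-fold lower than at day 12 and none higher (median -0.81), and so were 7 of 18 glycolytic targets (median -0.78). Bhlhe40, a transcriptional repressor gene, had 0.941 in iPSCs and 29.5 at day 12, Aldoc 0.601 and 18.0, and Slc2a1, the main glucose transporter gene of many cultured cells, 39.8 and 181. The pathway genes upstream did not share this: 2 of 15 were 2-fold lower and none higher (median -0.06), with Hif1a at 19.2 in iPSCs and 13.6 at day 12 and Epas1 at 3.36 and 6.23. Of the ascorbate genes 3 of 6 were at least 2-fold lower. Gsto1, an enzyme gene that can recycle oxidised ascorbate, had 9.51 in iPSCs and 111 at day 12, and Slc23a2, the sodium-linked ascorbate transporter gene, 4.61 and 5.93. Of 16 mitophagy genes 5 were at least 2-fold lower (median -0.48), among them Bnip3l, the closest relative of Bnip3, with 2.76 and 8.57. Among the families of single members, 4 of 5 genes of the VEGF family and its receptors were 2-fold lower in iPSCs (median -1.49), such as Flt1, a VEGF receptor gene, with 0.207 and 18.8, while none of 2 genes of the adrenomedullin family and its receptors and none of 3 of the NDRG family passed 2-fold. Of 8 targets of the stress factor Atf4, 2 were higher and 1 lower (median 0.63), and of 7 regulators reported for single members 1 was higher and 2 were lower (median 0.03).

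Markers of several cell types differed along with the members. Of those that reached a mean of 1 in either group, 7 of 10 epithelial (median log2 ratio -2.44), 4 of 4 keratinocyte (-4.96), 6 of 7 blood and macrophage (-1.31), 6 of 6 fibroblast (-1.43) and 2 of 4 trophoblast markers (-1.36) were at least 2-fold lower in iPSCs, 1 trophoblast marker was higher, and 6 of 12 pluripotency markers were higher (1.04). All 10 epithelial markers had reads in both groups and summed to a median of 97.0 in iPSCs (0.373 to 378) and 391 at day 12 (13.5 to 5573), and 2 of 5 keratinocyte markers in iPSCs (none for Krt5, Sprr1a and Krt6a) and 5 of 5 at day 12 had reads, with sums from 0 to 107 and from 0 to 1756. The blood and macrophage markers summed to between 0 and 1591 in iPSCs (median 0) and between 0 and 2064 at day 12 (median 10.3). The fibroblast markers summed to between 0 and 29.6 and between 0 and 760. In each plate both of these highest sums came from 1 cell, the one with fibroblast or blood markers, which the counts above include. The pluripotency markers summed to between 238 and 1794 in iPSCs and between 0 and 2459 at day 12. Their part in the result was not tested.

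Set against the starting fibroblasts, iPSCs were not uniformly lower. Of the 9 members 4 were at least 2-fold lower in iPSCs than at day 0 and 1 higher, against 21.2% and 23.1% of all genes, with a median of -0.60 against 0.11 over all genes. Adm (log2 ratio -4.58), P4ha2 (-3.11), P4ha1 (-2.55) and Ndrg1 (-1.60) were lower, and Egln3 (1.58) was higher. Ankrd37 was at 0.46, Bnip3 at 0.25, Vegfa at -0.34 and Egln1 at -0.60. By mean log values 3 were lower and none higher, against 4.08% and 4.29% of all genes. All 10 fibroblast markers were at least 2-fold lower in iPSCs (median -7.12), and their part was not tested. Matrix genes were lower too: 10 of 11 genes of collagen prolyl and lysyl hydroxylation and 10 of 10 collagen chains were at least 2-fold lower (medians -2.05 and -5.50). Glycolytic targets had 6 of 18 higher and 2 lower (median 0.81). This comparison shares its iPSC cells with the one before and its day 0 cells with that of day 8.

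**Figure D3:**
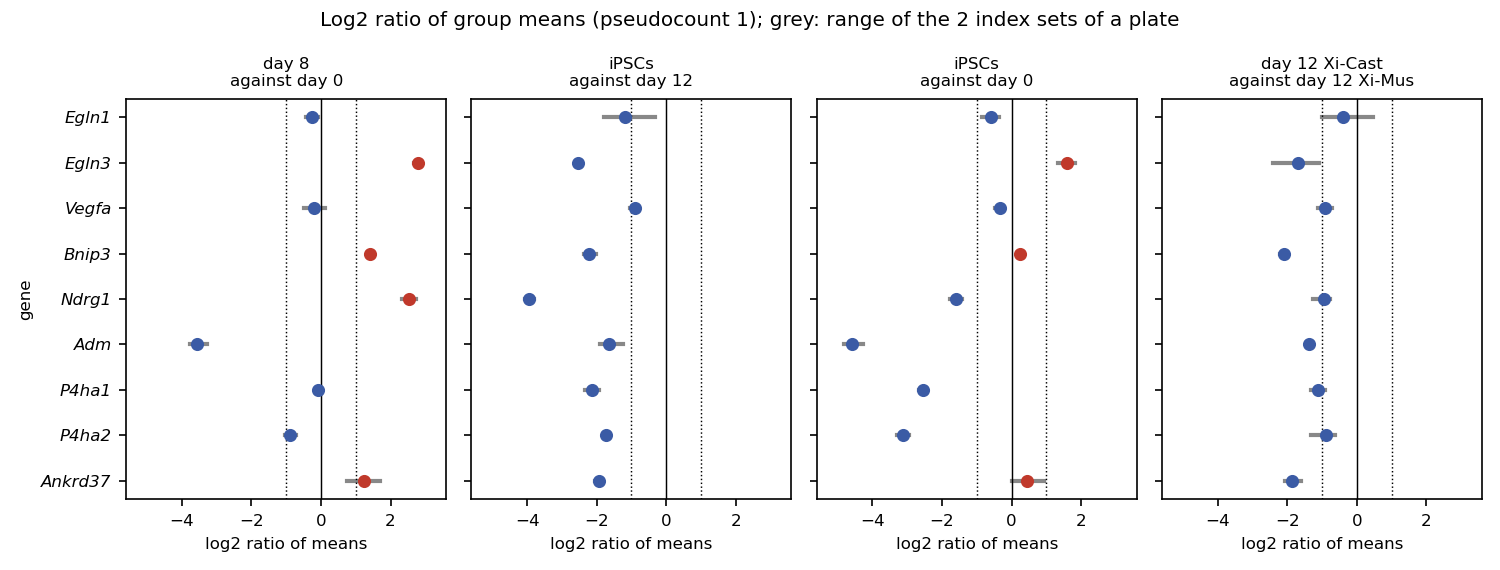
Log2 ratio of mean reads per 100000 (pseudocount 1) of each member in 4 comparisons, with points right of 0 higher in the group named first in each title; grey bars span the values from the 2 index sets of a plate and dotted lines mark 2-fold. In iPSCs against day 12 and in day 12 Xi-Cast against day 12 Xi-Mus all 9 points lie left of 0, and Egln1 has the widest bars.

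The last comparison asked whether day 12 intermediates with the other X inactivated at the start held the same levels. The 2 plates had the same day, SSEA1 sort and pool, while the starting MEFs had been sorted with GFP for Xi-Cast and without it for Xi-Mus. All 9 members were lower in Xi-Cast cells, 5 of them at least 2-fold, against 2.31% of all genes 2-fold lower and 0.691% higher, and the medians were -1.11 for the members and 0.02 for all genes. Of all genes 48.3% lay below 0. Bnip3 was the most different, with 1.55 ± 2.91 in Xi-Cast cells and 9.92 ± 9.93 in Xi-Mus cells (log2 ratio -2.10). Its median was 0.309 in Xi-Cast cells (0 to 19.01) and 5.99 in Xi-Mus cells (0 to 42.8), and after thinning 43.1% of Xi-Cast cells (30.8 to 55.96%) and 92.5% of Xi-Mus cells (84.4 to 97.2%) had reads. Bnip3 lay apart between the plates in level and in share of cells, though the ranges overlapped.

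Ankrd37 (0.836 ± 1.70 in Xi-Cast cells and 5.66 ± 12.0 in Xi-Mus cells, log2 ratio -1.86), Egln3 (6.17 ± 19.8 and 22.1 ± 29.9, -1.69), Adm (0.279 ± 2.24 and 2.31 ± 6.38, -1.37) and P4ha1 (9.31 ± 12.5 and 21.2 ± 21.9, -1.11) were the others past 2-fold. Ndrg1 (-0.95), Vegfa (-0.93), P4ha2 (-0.87) and Egln1 (-0.39) were not. With the first 4 indexes alone Egln1 was lower and with the last 4 it was higher in Xi-Cast cells (lowest and highest log2 ratio over all settings -0.99 and 0.48). Single cells made up much of the Xi-Cast means. The cell with a fibroblast marker sum of 1503 held 98.9% of the Adm values and 62.6% of the P4ha2 values, and without the highest cell the means were 0.00311 and 1.10. The highest cell for Egln3 held 37.6% of its values, and so did that for Ndrg1. By mean log values no member was 2-fold lower, where 0.0102% of all genes were, and the median of the 9 was -0.39. Without the highest cell of each gene in each plate Ndrg1 was at -1.46 and P4ha2 at -1.64. Without the cells with fibroblast or blood markers the median of the 9 log2 ratios was -1.68.

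**Figure D4:**
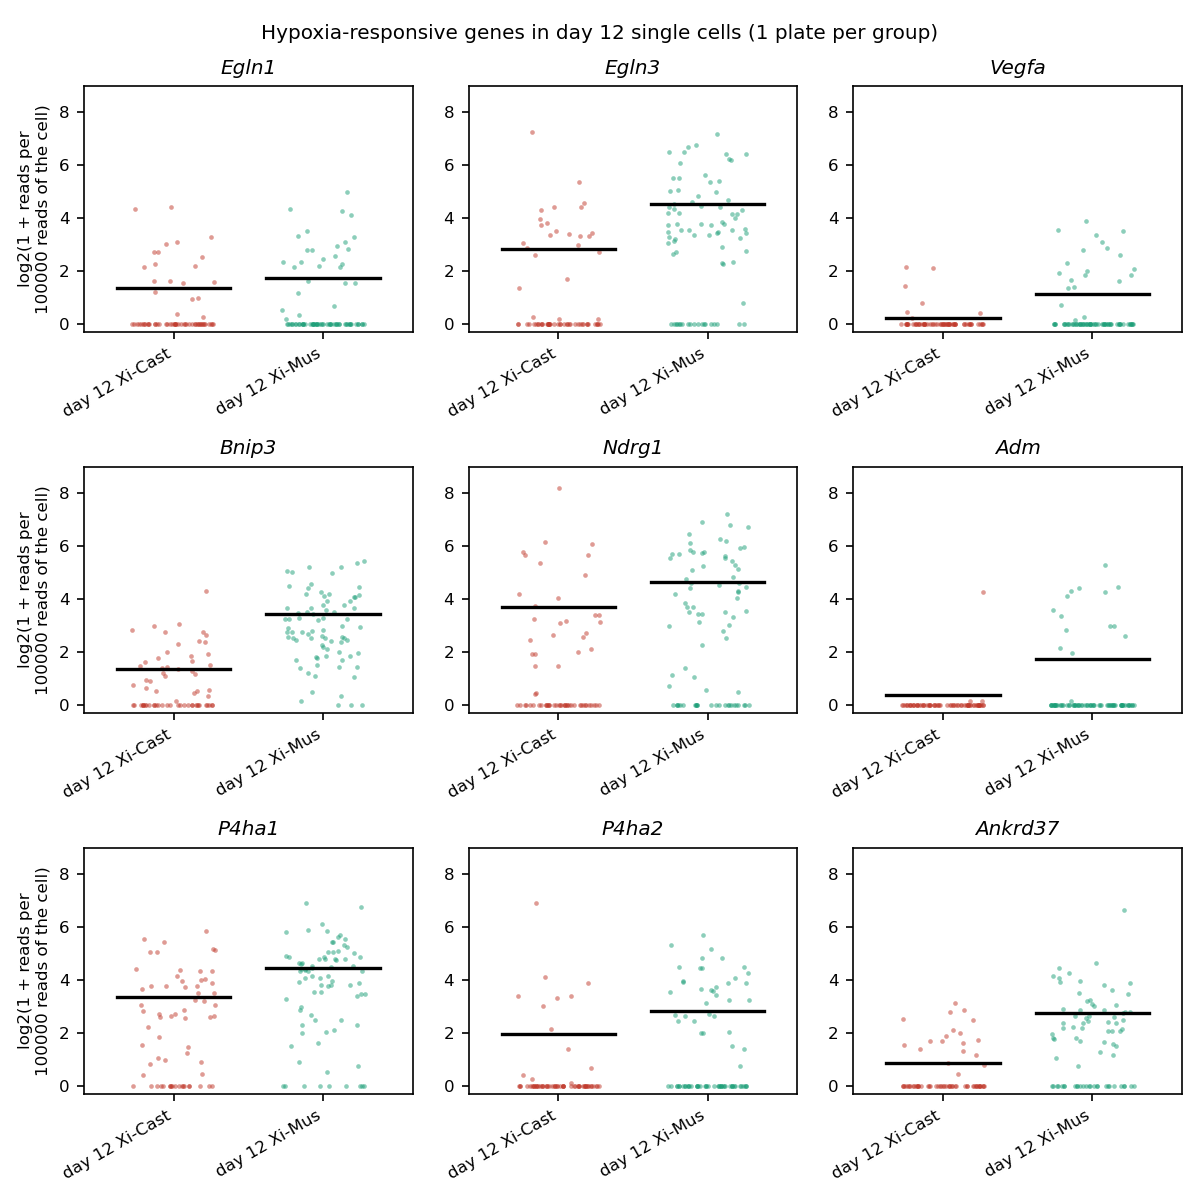
Reads per 100000 reads of the cell, as log2 of 1 + the value, of the 9 genes in day 12 Xi-Cast cells (red, 66 cells) and day 12 Xi-Mus cells (green, 80 cells); black lines are log2 of 1 + the mean. The Xi-Cast lines are the lower ones for all 9 genes, and Bnip3 has reads in 53.03% of Xi-Cast cells and 96.3% of Xi-Mus cells.

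Related gene groups showed the difference to a lesser degree. Of 30 other HIF targets 1 was at least 2-fold higher and 1 lower in Xi-Cast cells (median -0.28), and of 18 glycolytic targets 1 was lower (median -0.50). Ddit4, a stress-induced mTOR inhibitor gene, had 2.49 in Xi-Cast cells and 8.98 in Xi-Mus cells, Eno2 1.52 and 6.54, Aldoc 9.24 and 18.0, and Flt1 6.78 and 18.8. None of 16 oxygen-sensing genes passed 2-fold (median 0.14), and Epas1 was at 10.9 and 6.23. Of 9 collagen chains 4 were higher in Xi-Cast cells, such as Col1a1 with 10.4 in Xi-Cast and 3.43 in Xi-Mus cells. For Col1a1 1 Xi-Cast cell held 90.9% of the values, and without the highest cell of each plate the order was the opposite, with 0.963 and 2.42. All 5 keratinocyte markers had reads in both plates and summed to a median of 93.5 in Xi-Cast cells (0 to 1276) and 5.03 in Xi-Mus cells (0 to 1756), while their mean sum was 183 in Xi-Cast and 217 in Xi-Mus cells. By log2 ratios of means, 2 of 4 were at least 2-fold lower in Xi-Cast cells and none higher (median -0.64). All 10 epithelial markers had reads, with median sums of 443 (6.51 to 6052) and 391 (13.5 to 5573) and mean sums of 670 in Xi-Cast and 928 in Xi-Mus cells, and 2 of 10 were lower and none higher (-0.32). Of 9 blood and macrophage markers 4 had reads in Xi-Cast cells, where Ptprc, Adgre1, C1qa, C1qb and Tyrobp had none, and 9 in Xi-Mus cells, with median sums of 6.90 (0 to 108) and 10.3 (0 to 2064), and 6 of 7 were at least 2-fold lower in Xi-Cast cells (-1.75). The sum of 2064 came from the 1 Xi-Mus cell with fibroblast or blood markers, which these ratios include. Of 6 fibroblast markers 2 were higher and none lower (-0.26), and of 12 pluripotency markers none passed 2-fold (-0.05). The part of these markers in the difference was not tested.

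Day 12 plates held cells with and without reads of the pluripotency gene Dppa4, and the members were described in both. In Xi-Cast 33 of 66 cells had Dppa4 reads and in Xi-Mus 38 of 80. In Xi-Mus cells all 9 members had a lower mean with Dppa4 reads than without. The share of all genes that were lower with Dppa4 reads was not computed for either plate. The counts of members by Dppa4 reads therefore do not set them apart from other genes. P4ha2 had 1.72 with and 10.2 without (log2 ratio -2.03), Ndrg1 9.83 and 36.98 (-1.81), Egln1 0.997 and 3.53 (-1.18) and P4ha1 12.8 and 28.8 (-1.10). Bnip3 was at -0.66 and Ankrd37 at -0.26. In Xi-Cast cells 7 of 9 were lower with Dppa4 reads, Bnip3 was at 0.01 and Ankrd37 at 0.48. Adm was found in 0 of 33 Xi-Cast cells with Dppa4 reads. This allows a share of up to about 9.09%, taken as 3 of 33 cells and not from the exact binomial interval used for other shares. The difference between the 2 plates was present on both sides. Among cells with Dppa4 reads Bnip3 had 1.56 in Xi-Cast and 7.36 in Xi-Mus cells (log2 ratio -1.71), and among cells without 1.54 and 12.2 (-2.38). Egln3 had 4.04 and 14.9 with (-1.66) and 8.31 and 28.6 without (-1.67). All 9 members were lower in Xi-Cast cells in each of these subsets. Between the whole plates 48.3% of all genes lay below 0, and the share within the subsets was not computed.

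Between cells of a plate, some members went together and others did not. Over the cells of a plate, the Pearson correlation of the deposited log values between members was taken for all 36 pairs. The median was 0.00 at day 0, 0.19 at day 8 and 0.23 at day 9, followed by 0.17 at day 10, 0.12 in day 12 Xi-Cast cells, 0.23 in day 12 Xi-Mus cells and 0.05 in iPSCs. The median over all pairs of 10429 or more genes with reads in at least 20% of all cells lay between -0.00429 and 0.00189 in every plate. Cells of a plate share the run and preparation, and most values are 0, so these numbers are descriptions. Bnip3 and P4ha1 had r = 0.63 at day 8 (n = 82 cells), and Bnip3 and Ndrg1 had 0.58 at day 9 (n = 83) and 0.57 at day 10 (n = 80). Ndrg1 and P4ha1 had 0.11 in iPSCs (n = 90) and 0.64 in day 12 Xi-Mus cells (n = 80). At day 0 Bnip3 and Ndrg1 were at 0.00 and Bnip3 and P4ha1 at 0.34 (n = 86). The highest pair of all, Adm and P4ha2 with 0.82 in day 12 Xi-Cast cells (n = 66), rested on the cell with a fibroblast marker sum of 1503, and was 0.06 without it.

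**Figure D5:**
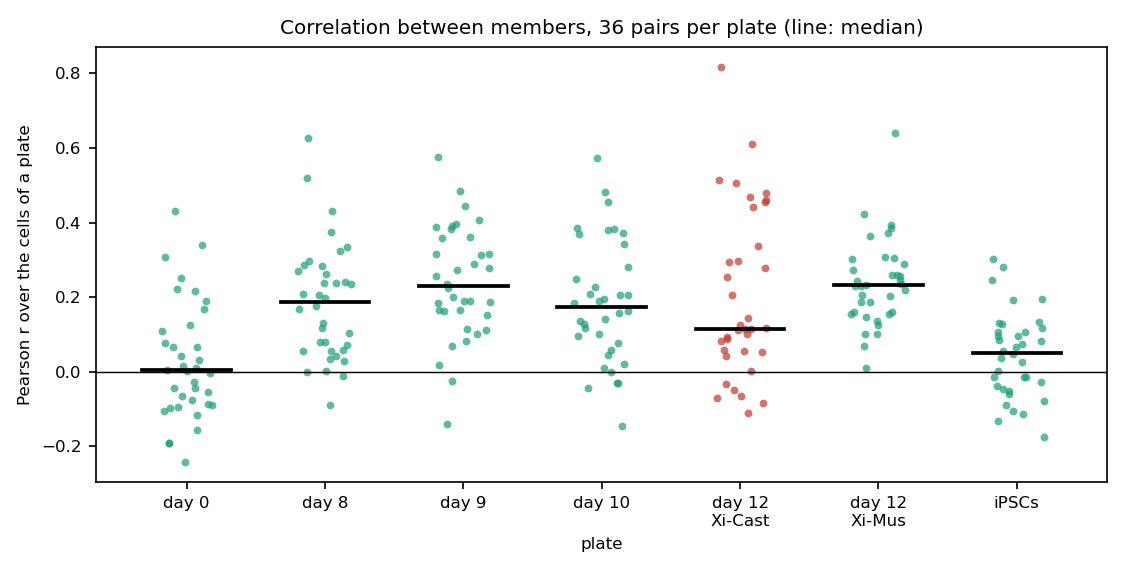
Pearson correlation of log values over the cells of 1 plate for the 36 pairs of members, 1 point per pair, with the median as a black line; Xi-Cast in red and Xi-Mus in green. Medians lie between 0.17 and 0.23 at days 8 to 12 in Xi-Mus cells and at 0.00 at day 0 and 0.05 in iPSCs; the highest Xi-Cast point is Adm with P4ha2.

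Genes outside the group that went with it were looked for among 10715 genes with reads in at least 20% of cells, by the correlation with the mean log value of the 9 members over 567 cells after plate means were subtracted. The 15 closest were Eno2 (r = 0.56), AC160336.1 (0.52), Gm14506 (0.47), 2610528A11Rik (0.46), Tpi1 (0.46), Krt19 (0.46), Aldoc (0.45), Ndufa4l2 (0.44), Acvrl1 (0.43), Ero1l (0.43), Efna1 (0.42), Slc2a1 (0.41), Bsg (0.41), Gabarap (0.41) and Flt1 (0.40). Of these, Eno2, Tpi1, Aldoc and Slc2a1 belong to the list of glycolytic HIF targets, and Ero1l, an oxidase of the endoplasmic reticulum, to the list of other targets. AC160336.1 and Gm14506 are the near-identical copies of Bnip3, and reads from identical stretches cannot be told apart. Eno2 was close in intermediates (0.63 at day 8 and 0.57 at day 9, followed by 0.67 at day 10, 0.53 at day 12) and not at day 0 (0.14) or in iPSCs (0.06). For single members, Egln3 was closest to Fhl2 (0.47), Nccrp1 (0.47) and Mal (0.43), none of them in a list of HIF targets, while P4ha2 was closest to Ndufa4l2 (0.37), Higd1a (0.36) and Ero1l (0.32).

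The mean of the members had a correlation of 0.61 with the mean of the other HIF targets and of 0.52 with that of the glycolytic targets over all 567 cells, plate means subtracted, and of 0.01 with that of the oxygen-sensing genes. It was -0.39 with the pluripotency markers, 0.30 with the epithelial and 0.32 with the keratinocyte markers, 0.23 with the blood and macrophage markers and 0.03 with depth. By plate, the value for the glycolytic targets was 0.34 at day 0, 0.72 at day 8 and 0.69 at day 9, followed by 0.64 at day 10, 0.43 in day 12 Xi-Cast cells, 0.28 in day 12 Xi-Mus cells and 0.05 in iPSCs. At day 0 the members also went with depth (0.36), against -0.11 at day 12 in Xi-Mus cells and 0.06 in iPSCs.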

How the data were processed

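Single cells were measured by Smart-seq2, which has no molecular identifiers and does not mark strand. Per the methods, the authors aligned reads with STAR 2.5.3a to mm10, counted uniquely aligned reads per gene with featureCounts, and kept cells with over 4000 and under 10000 genes and under 8% mitochondrial reads. The deposited values are the natural log of 1 + reads per 10000 reads of the cell, a scale read from the values, where the methods state 100000. They gave whole reads for 3980842 of 3980842 values above 0 (within 0.01 reads or a relative 1e-06). Of 96 labelled cells per group, 66 to 90 were in the table.

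Values were returned to a linear scale per 100000 reads. Each of the 7 plates was 1 sample, so no test was run; "2-fold" is read from the ratio of both means after adding a pseudocount of 1 to each, and shares of all genes cover those reaching a mean of 1 in either group. All 9 members are described. From each list of related genes up to 4 examples were named, those with the largest ratio and a mean of at least 5, besides genes said to be named after their values were seen, and a gene this rule picked is not reported here; like genes were the 15 closest by correlation, and the 3 closest for single members. Members and lists were chosen with earlier results of these data known. Doublets were not called. Annotation was GENCODE vM21, promoters RefSeq GRCm38.p6. The comparisons were recomputed with another pseudocount, another filter on low genes, another scaling, mean log values, deeper cells, cells of each index set, and without the highest cell. Python 3.11.15, numpy 2.4.6, scipy 1.17.1, pandas 2.3.3 and matplotlib 3.10.9 were used.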

Additional observations from a re-analysis of the deposited data

How the results depend on the processing

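Of 730 log2 ratios of members under the alternatives, 670 stayed within 0.58 of the reported value, 60 moved further, and 0 of the ratios of 2-fold or more changed sign. Of these 60, 28 came with the difference of mean log values and 22 with a pseudocount of 0.1, each out of 63 ratios. The settings that changed only the filter on low genes cannot move a ratio. The sum of Bnip3 with its copies can move only that of Bnip3. Their 63, 37 and 63 ratios are part of the 670. The median over the 9 members in iPSCs against day 0 (-0.60) was -1.24 with a pseudocount of 0.1 and -3.11 over the 3 members with a mean of at least 5. In iPSCs against day 12 (-1.94) it was -2.78 with a pseudocount of 0.1 and -0.40 as a difference of mean log values, and in Xi-Cast against Xi-Mus day 12 cells (-1.11) it was -1.82 and -0.39. The count of members at least 2-fold lower ranged from 1 to 9 in iPSCs against day 12 (8 as reported) and from 0 to 8 in Xi-Cast against Xi-Mus cells (5 as reported), with the lowest count from mean log values and the highest from the pseudocount of 0.1. The share of all genes past 2-fold also depends on the setting, so these counts alone are no result about the members. The settings without cells of high fibroblast or blood marker sums and with Bnip3 summed with its copies were chosen after seeing the data, and the sum with the copies moved 0 ratios by more than 0.58. No paired analysis was possible because each group was 1 plate and the cell numbers pair no cells. Egln1, Vegfa and, after day 0, Adm had medians of 0 over cells, so their ratios rest on few cells. In iPSCs and in day 12 Xi-Cast cells Egln3, Ndrg1, P4ha2 and Ankrd37 also had medians of 0.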
